A study of Mus musculus with 6 samples.

Results

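Planar cell polarity is the alignment of cells, and of the structures on them, within the plane of an epithelium. The genes examined here are 10 core genes of this system, Vangl1, Vangl2, Celsr1, Celsr2, Celsr3, Fzd3, Fzd6, Prickle1, Prickle2 and Dvl1, chosen by name from the 22851 gene symbols in the count table. All 10 had a row and all 10 passed the filter on low counts. RNA came from multiciliated ependymal cells grown from radial glial cells of newborn (P0-P3) C57BL/6J mice and kept for 6 days in medium without serum. WT cells gave 3 libraries and cells of Edf1 knockout mice, made by CRISPR/Cas9, gave 3. Both genotypes share the strain, the culture and the induction. The labels do not name the deleted part of Edf1, and the libraries are called biological replicates without saying whether each came from its own animal or culture, so p-values measure the spread between these libraries, which may be technical. The Edf1 protein bridges transcription factors to the basal machinery and also acts at stalled ribosomes.

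In ependymal cells, which line the brain ventricles and move cerebrospinal fluid, core polarity proteins gather at opposite cell borders. The Celsr cadherins bridge neighbouring cells. The receptor Frizzled (Fzd) and its adaptor Dishevelled (Dvl) sit on one border, and the membrane protein Vangl with its partner Prickle sits on the facing border. The system orients the beat of the cilia and places the ciliary tuft on the apical surface, and mice without Celsr2 and Celsr3 have disorganised ependymal cilia.

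The promoters of Celsr2 and Dvl1 are shown because Celsr2 had the largest rise of the 10 genes and Dvl1 did not pass the test. Of the 10 genes, 6 (Vangl2, Celsr2, Celsr3, Prickle1, Prickle2 and Dvl1) matched the RefSeq promoter table (GRCm38.p6). Each sequence is the 250 bases before the start site, 5′ to 3′ on the strand of the gene, with GC boxes (GGGCGG or its reverse complement, overlapping matches included) in capitals.
Celsr2 (chr3:108415580-108415829, minus strand): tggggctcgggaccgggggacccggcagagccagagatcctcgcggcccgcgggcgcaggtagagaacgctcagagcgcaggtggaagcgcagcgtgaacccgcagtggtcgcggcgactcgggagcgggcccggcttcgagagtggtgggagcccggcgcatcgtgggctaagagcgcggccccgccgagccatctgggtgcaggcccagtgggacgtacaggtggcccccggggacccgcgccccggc
Dvl1 (chr4:155847152-155847401, plus strand): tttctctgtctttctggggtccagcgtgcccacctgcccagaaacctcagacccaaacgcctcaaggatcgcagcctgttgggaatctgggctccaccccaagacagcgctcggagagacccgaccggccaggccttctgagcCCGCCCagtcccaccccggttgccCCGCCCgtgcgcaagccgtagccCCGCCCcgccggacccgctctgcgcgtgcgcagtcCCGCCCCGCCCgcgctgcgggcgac
The Celsr2 window held no GC box and the Dvl1 window held 5 matches, while 32.7% of all 32851 promoter windows of this length held at least 1. Both windows are rich in G and C, at 75.2% for Celsr2 and 71.2% for Dvl1. The letters GTTGCC (either strand), part of the site of the RFX factors that serve cilia genes, matched 1 time in Dvl1 and in no place in Celsr2, against 10.4% of all windows with a match. Neither window held the forkhead letters TGTTTAC (3.17% of all windows), the TCF/LEF letters CTTTGAT (3.21%) or a CCAAT box (33.8%), on either strand. These matches describe the letters of the windows only.

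The libraries held 13071766 to 28087006 counts. Edf1 stood at 82.6, 85.9 and 80.2 CPM (counts scaled to a common library size and composition) in WT replicates 1, 2 and 3, and at 9.84, 10.9 and 13.2 CPM in knockout cells, so the direction matched the label in every library. All 14 markers of multiciliated ependymal cells were expressed, and all 14 were called lower in the knockout. Their summed level was 2365 to 2582 CPM in WT and 1396 to 1464 CPM in knockout cells. Of 8 microglial markers, 7 were called lower, with sums of 1585 to 1713 CPM in WT and 1022 to 1039 CPM in knockout cells. All 6 tested fibroblast and mural markers were called higher, with sums of 558 to 596 CPM in WT and 712 to 791 CPM in knockout cells. Of 11 radial glia and astrocyte markers, 3 were called higher (Nes, Aldh1l1 and Fabp7) and 2 lower (Gfap and Gjb6), and their sum was 9982 to 10483 CPM in WT and 10956 to 11372 CPM in knockout cells. The endothelial gene Cldn5 was at 0 counts in every WT library, and Pecam1 and Cdh5 were near 0. In bulk RNA, fewer cells of a type and less RNA per cell cannot be told apart.

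Of the 10 core genes, 3 changed in the knockout: Celsr1 and Celsr2 rose and Vangl1 fell. Celsr2 was 35.8% higher and Celsr1 20.5% higher, and Vangl1 fell by 22.1%. The other 7, Vangl2, Celsr3, Fzd3, Fzd6, Prickle1, Prickle2 and Dvl1, stayed above the threshold of 0.05 (edgeR, quasi-likelihood, Benjamini-Hochberg over 14243 genes). Among all tested genes 26.9% were called, 12.7% higher and 14.2% lower, so the share of core genes called lies near that of the transcriptome. The 2 genotypes did not overlap for the same 3 core genes, against 43.3% of all tested genes. The median log2 fold change (log2 FC, knockout over WT throughout) of the 10 genes was 0.052, and that of all tested genes was 0.0029.

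**Figure D1:**
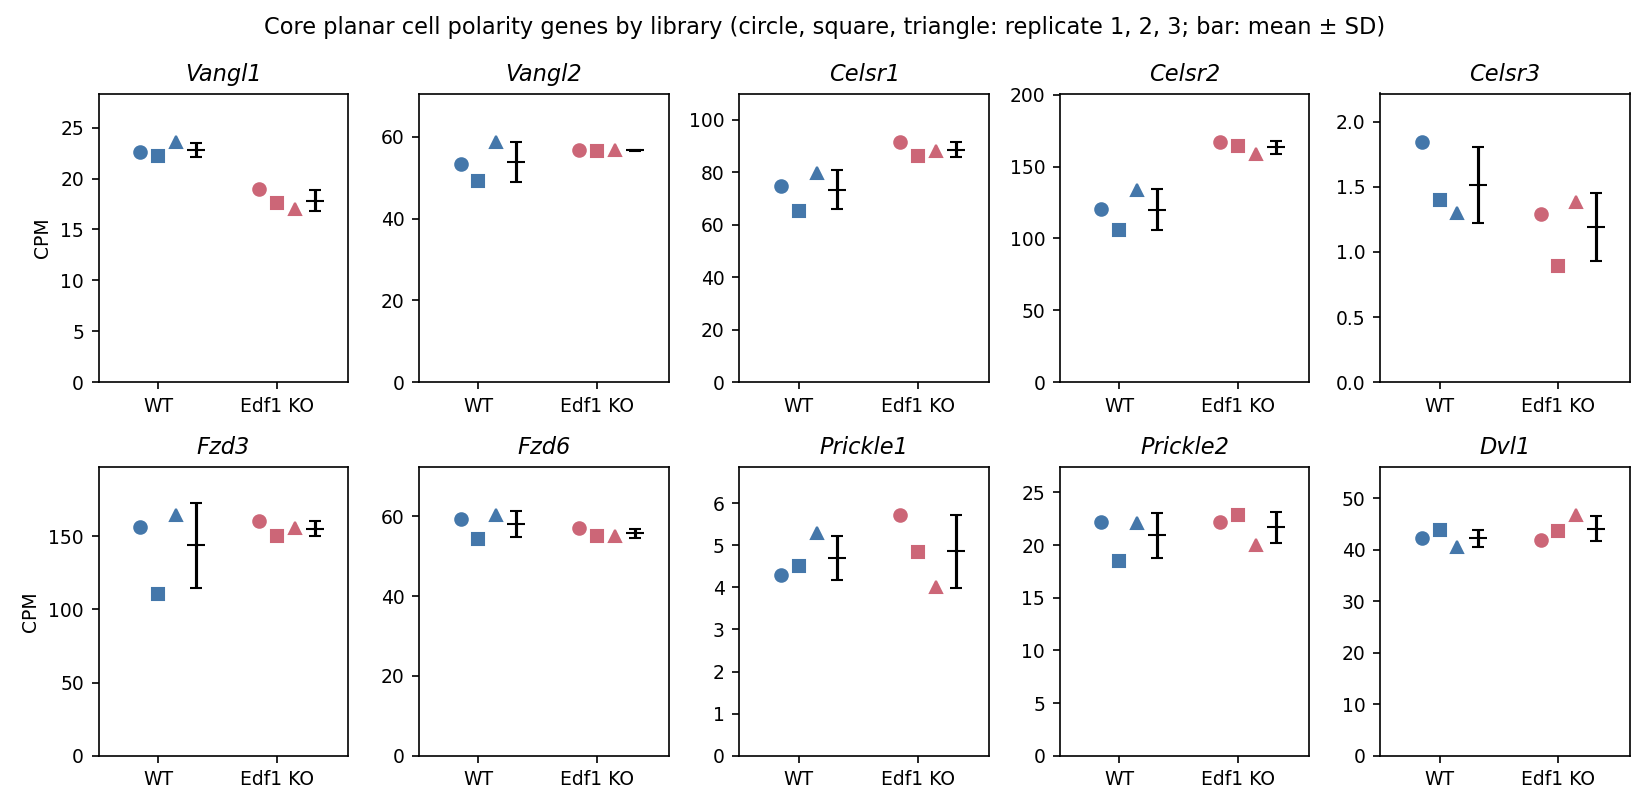
CPM of each core planar cell polarity gene (linear axis from 0, a scale for each gene) in the 3 WT and 3 Edf1 knockout libraries, with the mean and SD beside the points. Celsr1 and Celsr2 lie higher and Vangl1 lower in every knockout library than in any WT library, and WT replicate 2 (square) is the lowest WT library for 7 of the 10 genes.

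Celsr2 (chromosome 3, 108390851 to 108415552, minus strand, GRCm38) encodes one of the seven-pass cadherins that join polarity complexes across cell borders. It had 120.5, 105.6 and 133.8 CPM in WT replicates 1, 2 and 3 and 167.3, 164.2 and 158.5 CPM in knockout replicates 1, 2 and 3. The lowest knockout library thus lay above the highest WT library, which was WT replicate 3. The log2 FC was 0.44 (SE 0.074, 95% interval 0.28 to 0.60) and the edgeR adjusted p was 0.000761. The call held under each of 15 alternative settings. The value was 0.36 without WT replicate 2 and 0.27 once library trends with GC content and transcript length were removed (edgeR adjusted p = 0.000405), called the GC and length correction here. Trends were taken against the mean over both genotypes, so the correction also removes a GC or length trend that differs between genotypes.

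Celsr1 (chromosome 15, 85898929 to 86033777, minus strand), a cadherin of the same family, moved the same way with a smaller fitted change. Its levels were 74.9, 65.3 and 79.7 CPM in WT and 91.7, 86.0 and 88.0 CPM in knockout cells. All knockout libraries exceeded all WT libraries, and WT replicate 2 was again the lowest. The log2 FC was 0.27 (SE 0.071, 95% interval 0.11 to 0.42) and the edgeR adjusted p was 0.0142. This call was lost after the GC and length correction (0.088, edgeR adjusted p = 0.190) and without knockout replicate 1 (0.24, edgeR adjusted p = 0.0712). Without WT replicate 2 it held at 0.20 (edgeR adjusted p = 0.00693).

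Celsr3 (chromosome 9, 108826320 to 108852969, plus strand), which acts with Celsr2 in the ependyma, was barely detected. It had 49, 18 and 24 counts in WT and 21, 16 and 39 counts in the knockout, or 1.30 to 1.85 CPM against 0.891 to 1.38 CPM. The groups overlapped, and the log2 FC of -0.36 had a 95% interval of -0.97 to 0.25 (edgeR adjusted p = 0.383). At this depth neither a fall of nearly 2-fold nor a small rise is outside the interval. The value was -0.15 without WT replicate 1 and -0.51 without knockout replicate 3.

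Per kilobase of annotated exon, Celsr2 made up 60.5 ± 0.63% of the level of the 3 Celsr genes in WT and 63.5 ± 0.76% in the knockout (mean ± SD, n = 3 each). Celsr1 made up 38.7 ± 0.48% and 36.0 ± 0.66%, and Celsr3 0.736 ± 0.16% and 0.441 ± 0.097%. Their sum was 17.2 ± 1.89 CPM per kb in WT and 22.3 ± 0.57 CPM per kb in the knockout. The Celsr RNA of these cultures was therefore mostly Celsr2 and Celsr1 in both genotypes. The summed radial glia and astrocyte markers and the summed fibroblast and mural markers were also higher in all knockout libraries. Most of the first sum was Vim, at 6273 CPM in WT and not called (edgeR adjusted p = 0.0723). Most of the second was Acta2, at 475 CPM in WT. The part of these markers in the rises of Celsr1 and Celsr2 was not tested.

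Vangl1 (chromosome 3, 102153583 to 102204693, minus strand) encodes a four-pass membrane protein that recruits Prickle. Its levels were 22.6, 22.2 and 23.6 CPM in WT and 18.9, 17.5 and 17.0 CPM in knockout cells. The WT libraries lay within a narrow band and all knockout libraries lay below it. The log2 FC was -0.36 (SE 0.080, 95% interval -0.53 to -0.19) and the edgeR adjusted p was 0.00530. It ran from -0.43 to -0.32 over the 15 alternatives and passed in each, and was -0.38 without WT replicate 2.

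Its paralog Vangl2 (chromosome 1, 172000960 to 172028444, minus strand), the form whose loss disturbs ependymal cilia orientation, did not pass the test. It had 53.3, 49.1 and 58.8 CPM in WT and 56.7, 56.6 and 56.8 CPM in knockout cells. The knockout values fell between WT replicates 1 and 3. The log2 FC was 0.074 (95% interval -0.073 to 0.22, edgeR adjusted p = 0.460), and -0.0093 after the GC and length correction. It was 0.021 without WT replicate 2 and 0.14 without WT replicate 3, and passed in neither. Per kilobase of exon, Vangl1 made up 29.4 ± 1.24% of the Vangl RNA in WT and 23.5 ± 1.0% in the knockout (mean ± SD, n = 3 each).

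Of the receptors, Fzd3 (chromosome 14, 65192449 to 65262463, minus strand) is the Frizzled known for axon guidance. It had 156.1, 110.7 and 164.5 CPM in WT and 160.2, 150.1 and 155.5 CPM in knockout cells. WT replicate 2 stood far below the other 5 libraries, which overlapped. The log2 FC was 0.10 (95% interval -0.13 to 0.34, edgeR adjusted p = 0.522). It turned to -0.046 without WT replicate 2 and to -0.077 after the GC and length correction, and passed in neither.

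Fzd6 (chromosome 15, 39006034 to 39038188, plus strand), the Frizzled known from hair orientation, was at 59.4, 54.4 and 60.3 CPM in WT and at 57.1, 55.1 and 55.0 CPM in knockout cells. All knockout values lay within the WT range. Its log2 FC was -0.063 (95% interval -0.19 to 0.067, edgeR adjusted p = 0.479). A rise of more than 0.067 or a fall of more than 0.19 on the log2 scale lies outside that interval.

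Dvl1 (chromosome 4, 155847402 to 155859303, plus strand) encodes the adaptor that carries the Frizzled signal to the cytoskeleton. It had 42.3, 43.8 and 40.5 CPM in WT and 41.9, 43.7 and 46.7 CPM in knockout cells, with overlapping groups. The log2 FC was 0.068 (95% interval -0.076 to 0.21, edgeR adjusted p = 0.492), and -0.019 after the GC and length correction. The paralog Dvl3 was at 64.6 ± 7.63 CPM in WT and 69.4 ± 1.52 CPM in knockout cells (SD, n = 3 each, edgeR adjusted p = 0.392). Dvl2, the paralog linked to basal body orientation in ependymal cilia, fell from 50.4 ± 1.91 to 44.6 ± 0.94 CPM (log2 FC -0.18, edgeR adjusted p = 0.0451). Its call was lost under 11 of 15 alternatives, among them the fits that left out any library other than WT replicate 2 (edgeR adjusted p up to 0.144). Exons of Acadvl on the other strand cover 18.3% of the Dvl2 exons, which leaves its counts uncertain.

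The Prickle genes encode LIM domain proteins that bind Vangl on the inner side of the membrane. Prickle1 (chromosome 15, 93499114 to 93595891, minus strand) was low, at 4.29, 4.51 and 5.30 CPM in WT and 5.72, 4.85 and 4.0 CPM in knockout cells. The knockout values spanned a wider range than the WT values and enclosed them. Its log2 FC of 0.029 (95% interval -0.35 to 0.41) had an edgeR adjusted p of 0.922 and changed sign under 3 alternatives. Prickle2 (chromosome 6, 92370908 to 92706155, minus strand) had 22.2, 18.5 and 22.1 CPM in WT and 22.2, 22.8 and 20.0 CPM in knockout cells, again with overlap. Its log2 FC was 0.036 (95% interval -0.17 to 0.24, edgeR adjusted p = 0.815), and -0.038 without WT replicate 2.

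The levels of the 10 genes were ordered per kilobase of annotated exon. In WT the order was Fzd6 (12.05 ± 0.67 CPM per kb), Fzd3 (11.2 ± 2.26), Celsr2 (10.4 ± 1.23), Dvl1 (8.45 ± 0.33), Vangl2 (7.69 ± 0.70), Celsr1 (6.66 ± 0.67), Vangl1 (3.19 ± 0.10), Prickle2 (2.42 ± 0.24), Prickle1 (1.08 ± 0.12) and Celsr3 (0.126 ± 0.024), as mean ± SD with n = 3. The ranges of Fzd6 and Fzd3 overlapped, as did those of Fzd3 and Celsr2, of Dvl1 and Vangl2, and of Vangl2 and Celsr1. Dvl1 (8.12 to 8.77 CPM per kb) and Celsr1 (5.93 to 7.24) did not overlap, and Vangl2 exceeded Celsr1 in 3 of 3 WT libraries. In the knockout Celsr2 came first at 14.2 ± 0.39 CPM per kb, above Fzd3 (12.1 ± 0.40) in all 3 libraries and with no overlap. Celsr1 reached 8.05 ± 0.26 CPM per kb there, overlapping Vangl2 at 8.11 ± 0.016, and Vangl1 at 2.49 ± 0.14 overlapped Prickle2 at 2.51 ± 0.17.

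WT libraries had the larger SD for 7 of the 10 genes, and WT replicate 2 was the lowest WT library for 7. Over all tested genes this library ran low for long transcripts. With genes in 10 equal classes of transcript length, 1410 genes each, its median log2 deviation from the mean of the other WT libraries was -0.26 in the longest class and 0.17 in the shortest. The knockout libraries had deviations of -0.035 to 0.050 in the longest class. Fzd3, with the longest transcript of the 10 genes (12734 bases), deviated by -0.53 in WT replicate 2. Celsr2 (10598 bases) deviated by -0.27, Celsr1 (10879 bases) by -0.24 and Vangl2 (6528 bases) by -0.19. Vangl1 (6531 bases) deviated by -0.055 and Dvl1 (4774 bases) by 0.081. Prickle2 (7860 bases) deviated by -0.26, Fzd6 (4325 bases) by -0.14, and the low Celsr3 (11571 bases) and Prickle1 (4144 bases) by -0.14 and -0.080. WT replicate 2 also has the lowest total count, and the values of Celsr2, Celsr1, Vangl1 and Fzd3 without it stand beside each gene above.

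**Figure D2:**
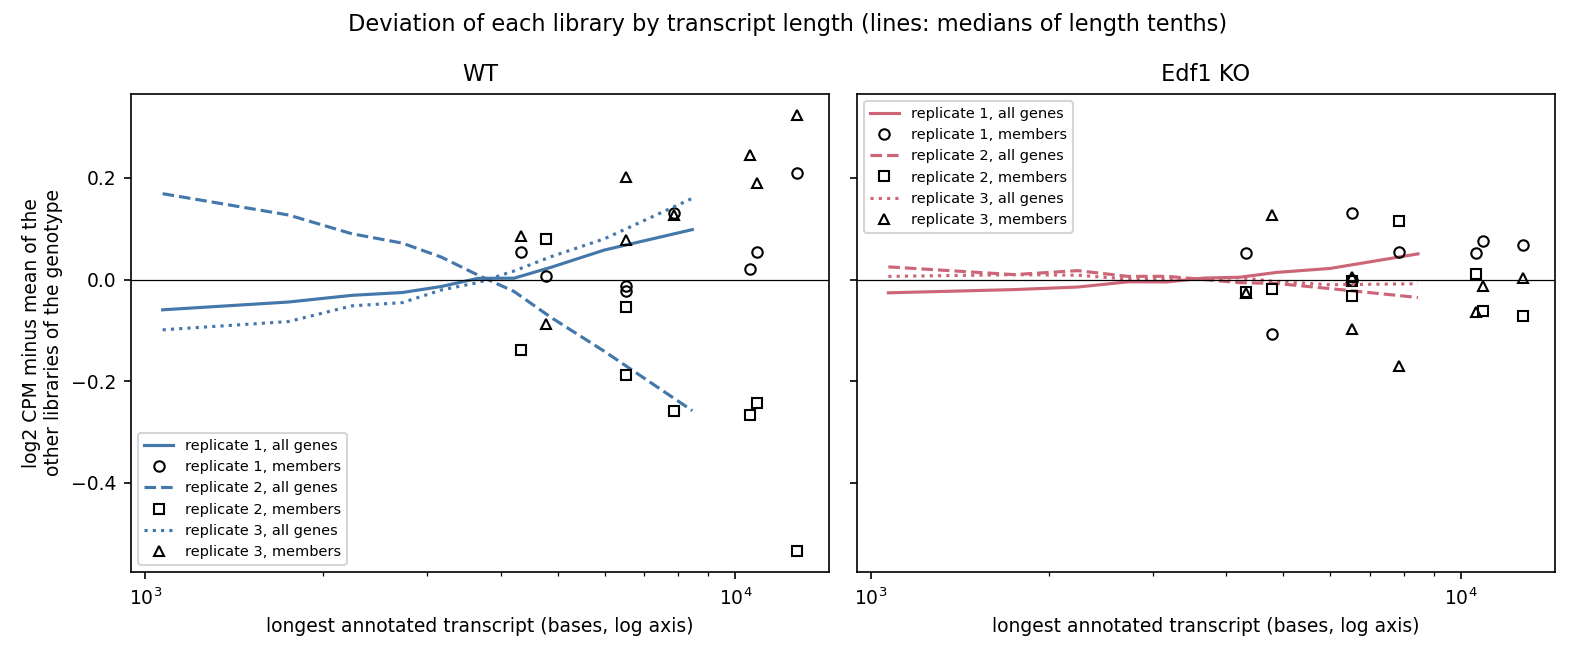
Deviation of each library's log2 CPM from the mean of the other libraries of its genotype (vertical axis) against the length of the longest annotated transcript (log axis). Lines join the medians of 10 length classes over all tested genes and symbols are the core genes apart from Celsr3 and Prickle1, which have few counts. WT replicate 2 (dashed line, squares) falls to -0.26 in the longest class, and Fzd3 lies lowest at -0.53.

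**Figure D3:**
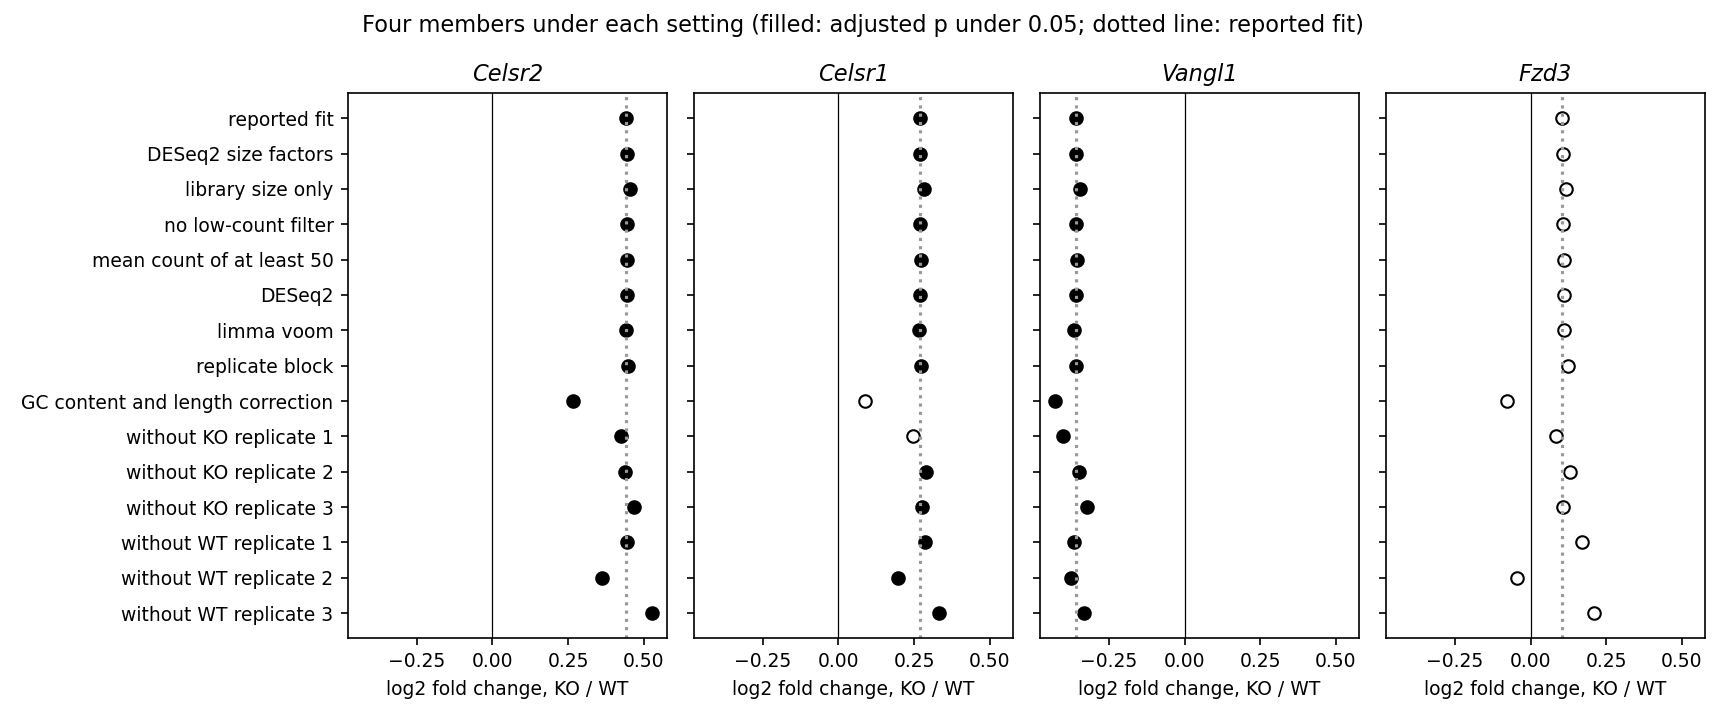
Log2 fold change of Celsr2, Celsr1, Vangl1 and Fzd3 in the reported fit and under each alternative with the 0.05 threshold (filled points pass it, the dotted line marks the reported value). Celsr2 and Vangl1 pass throughout, Celsr1 falls to 0.088 after the GC and length correction, and Fzd3 crosses 0 with that correction and without WT replicate 2.

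Whether paralogs moved apart was examined with log2 ratios of CPM within each library; library scaling enters them only through the added 0.1 CPM. The log2 ratio of Vangl2 to Vangl1 was 1.24, 1.14 and 1.31 in WT against 1.58, 1.68 and 1.73 in knockout libraries. The balance thus lay further towards Vangl2 in every knockout library, by a mean difference of 0.43. The log2 ratio of Celsr1 to Celsr2 was -0.69, -0.69 and -0.75 in WT against -0.87, -0.93 and -0.85 in knockout libraries, a difference of -0.17 towards Celsr2. The difference for Dvl1 over Dvl2 was 0.24, and those for Celsr3 over Celsr2 and Celsr1 over Celsr3 were -0.78 and 0.61. Celsr3 has only 16 to 49 counts a library, and its own change did not pass. The Celsr ratios share their genes, so they are not independent of each other.

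Groups did not overlap for these 5 ratios, each with a two-sided exact permutation p of 0.1, the smallest that 3 against 3 libraries can give (0.14 adjusted over 7 ratios). No ratio could therefore pass 0.05. Each of these ratios holds a gene whose groups did not overlap by itself (Vangl1, Celsr1, Celsr2 or Dvl2). Among all tested genes 43.3% did not overlap singly, and no such share was computed for ratios. The ratio of Fzd6 to Fzd3 differed by -0.19 and overlapped (exact permutation p = 0.2, adjusted 0.233); the difference was -0.058 without WT replicate 2. That of Prickle2 to Prickle1 differed by 0.017 (exact permutation p = 1, adjusted 1) and changed sign when single libraries were left out.

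**Figure D4:**
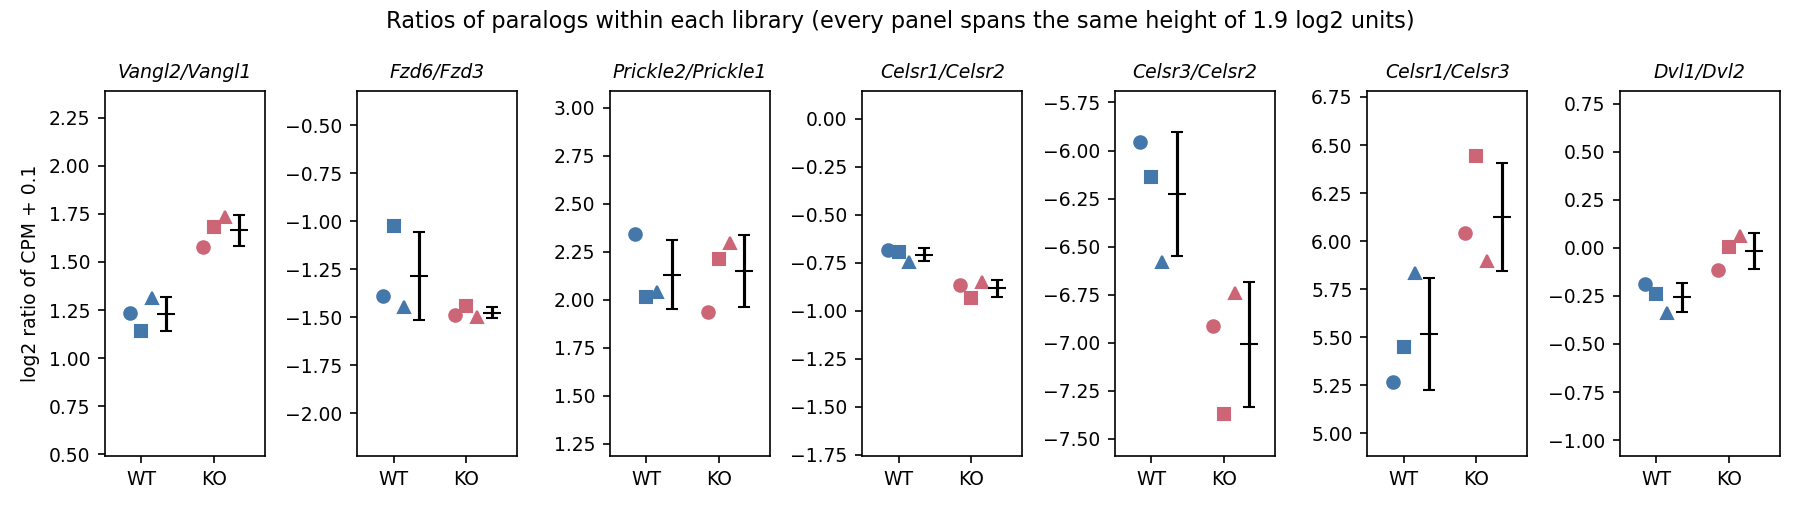
Log2 ratio of CPM + 0.1 between paralogs in each library, with mean and SD, in panels of equal height. The Vangl2/Vangl1 ratio is 1.14 to 1.31 in WT and 1.58 to 1.73 in the knockout, while Fzd6/Fzd3 and Prickle2/Prickle1 overlap.

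Other genes of the pathway were read from the same fit. Of 22 further core, co-receptor, transport and ligand genes, 6 rose (Fzd1, Fzd2, Ptk7, Ror1, Gpc4 and Gpc6), 5 fell (Dvl2, Prickle4, Scrib, Wnt4 and Wnt7a) and 11 did not pass, with a median log2 FC of 0.084. The share called was 50%, beside 26.9% of all tested genes (12.7% higher and 14.2% lower). The count of 11 called genes dropped to 6 without knockout replicate 1, to 6 without knockout replicate 2 and to 7 without knockout replicate 3. Among all genes these fits called 2658, 2662 and 2701, beside 3833 in the reported fit. Fzd1, a Frizzled receptor redundant with Fzd2 in tissue closure, rose from 26.4, 24.6 and 27.2 CPM to 39.1, 42.2 and 40.5 CPM (log2 FC 0.64, SE 0.072, edgeR adjusted p = 3.72e-05). Fzd2 rose from 55.5 ± 2.30 to 63.4 ± 1.56 CPM (0.19, edgeR adjusted p = 0.0260), a call lost without any 1 library other than WT replicate 2 (edgeR adjusted p up to 0.0917). Per kilobase of exon, Fzd1 made up 12.4 ± 0.29% of the level of Fzd1, Fzd2, Fzd3, Fzd6 and Fzd7 in WT and 17.1 ± 0.46% in the knockout, and Fzd6 24.03 ± 0.37% and 20.5 ± 0.64%.

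Of the co-receptors, the receptor tyrosine kinase gene Ror1, which binds Wnt5a, rose from 6.79 ± 0.58 to 10.9 ± 0.26 CPM (log2 FC 0.67, SE 0.11, edgeR adjusted p = 0.000875). The glypican gene Gpc4, whose product assists Wnt signalling at the cell surface, had 407, 423 and 427 CPM in WT and 580, 603 and 597 CPM in knockout cells (0.50, SE 0.044, edgeR adjusted p = 4.54e-06). The related Gpc6 rose from 36.6 ± 3.34 to 55.9 ± 4.50 CPM (0.60, SE 0.081). Ptk7, a pseudokinase of the pathway, rose from 54.5 ± 2.91 to 63.5 ± 1.87 CPM (0.22). Its call was lost without knockout replicate 1 (0.19, edgeR adjusted p = 0.0862), without knockout replicate 2 (0.22, 0.0574) and after the GC and length correction (0.14, 0.0571). The fibroblast and mural markers, higher by their sums in all knockout libraries, moved with these rises, and their part in them was not tested.

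Scrib, which encodes a basolateral scaffold that binds Vangl2, fell from 129 ± 10.2 to 107 ± 3.06 CPM (log2 FC -0.26, SE 0.063, edgeR adjusted p = 0.00809). Of 6 Wnt ligand genes, Wnt4 and Wnt7a fell and none rose, a share of 33.3% beside the 26.9% of all tested genes. Wnt4 had 6.37, 8.86 and 5.08 CPM in WT and 2.09, 2.51 and 3.26 CPM in knockout cells, a log2 FC of -1.30 (SE 0.23, edgeR adjusted p = 0.00102). Wnt7a went from 16.5 ± 0.59 to 13.7 ± 0.27 CPM (-0.27, edgeR adjusted p = 0.0345), a call lost without any 1 library other than WT replicate 2 and in DESeq2 (adjusted p-value 0.0929). Wnt5a, the ligand most often tied to planar polarity, was at 50.3 ± 6.05 CPM in WT and 54.9 ± 1.99 CPM in knockout cells (0.12, edgeR adjusted p = 0.274); without WT replicate 3 it passed at 0.23 (edgeR adjusted p = 0.0302). Prickle4 was called lower (-0.30, edgeR adjusted p = 0.0450), but every 31-mer of its longest transcript also occurs in other genes, most often in the gene model Gm21981. The Prickle4 call was lost when any knockout library was left out, without WT replicate 2 or without WT replicate 3 (edgeR adjusted p up to 0.127).

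The Fat and Dachsous cadherins form a second polarity module, in which Fjx1, the relative of the fly kinase Four-jointed, modifies their binding. Of 7 listed genes 6 were tested, since Fat2 had too few counts. Fat4 and Dchs1 rose, Fjx1 fell and Fat1, Fat3 and Dchs2 did not pass (median log2 FC 0.27). The share called was 50%, beside 26.9% of all tested genes. Fat4 had 53.3, 42.4 and 50.9 CPM in WT and 77.8, 68.7 and 68.6 CPM in knockout cells (log2 FC 0.54, SE 0.083, edgeR adjusted p = 0.000421). After the GC and length correction the Fat4 value was 0.38. Its partner Dchs1 had 33.9, 37.8 and 40.4 CPM in WT and 51.6, 51.8 and 52.5 CPM in knockout cells (0.48, SE 0.071, edgeR adjusted p = 0.000322), and 0.30 after the GC and length correction. Genes on the other strand cover 8.68% of the Fat4 exons and 5.86% of the Dchs1 exons. Fjx1 fell from 55.4, 52.4 and 50.1 CPM to 37.1, 39.1 and 38.9 CPM (-0.46, SE 0.063, edgeR adjusted p = 0.000179). The knockout and WT libraries did not overlap for 4 of the 6 tested genes, Fat3, Fat4, Dchs1 and Fjx1, beside 43.3% of all tested genes. Fat3 was at 67.4 ± 17.3 CPM in WT and 86.1 ± 5.30 CPM in knockout cells (0.34, edgeR adjusted p = 0.0878) and passed under 5 alternatives, among them the GC and length correction (0.18) and the fit without WT replicate 2 (0.16). Without WT replicate 3 the count of called genes in this module was 5 instead of 3, with Fat1 and Fat3 added. Among all genes that fit called 3695, beside 3833 in the reported fit. The tested fibroblast and mural markers and the sum of the radial glia and astrocyte markers moved up with Fat4 and Dchs1. Singly, 3 of the 11 radial glia and astrocyte markers were called higher and 2 lower. The part of these markers was not tested.

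Among 19 effectors, 4 rose, 3 fell and 12 did not pass (median log2 FC 0.092), a share called of 36.8% beside 26.9% of all tested genes. After the GC and length correction 9 were called, 4 higher and 5 lower, with Cplane1 (-0.15) and the kinase gene Mapk8 (-0.20) added to those lower. Over all genes that fit called 4470, 2033 higher and 2437 lower, beside 3833 in the reported fit. Of the 5 genes of the CPLANE group, whose products link polarity to the base of the cilium, Wdpcp, Fuz and Intu fell. Cplane1 and Cplane2 did not pass. The share called was 60%, beside 26.9% of all tested genes (14.2% lower). Wdpcp had 70.9, 77.0 and 71.0 CPM in WT and 51.8, 55.7 and 51.6 CPM in knockout cells (log2 FC -0.46, SE 0.061, edgeR adjusted p = 0.000123). Fuz fell from 126 ± 13.5 to 103 ± 4.56 CPM (-0.29, edgeR adjusted p = 0.0119), and genes on the other strand cover 38.5% of its exons. The call for Fuz was lost without knockout replicate 1 (edgeR adjusted p = 0.0627) and without knockout replicate 2 (0.0570). Intu fell from 57.0 ± 5.77 to 48.0 ± 2.09 CPM (-0.26, edgeR adjusted p = 0.0246), a call lost without knockout replicate 2, knockout replicate 3, WT replicate 1 or WT replicate 3 (edgeR adjusted p up to 0.103). The lower summed level of the ependymal markers moved with these falls, and its part in them was not tested.

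Of the 14 effectors outside the CPLANE group, which include cytoskeletal, kinase and ubiquitin ligase genes, 4 rose. The share called was 28.6%, near the 26.9% of all tested genes (12.7% higher). Acta2, a smooth muscle actin gene among the fibroblast and mural markers, was also called higher (0.30), and the part of those markers and of the radial glia and astrocyte markers in these rises was not tested. The non-muscle myosin heavy chain genes Myh9 and Myh10, whose products drive contraction at the cell cortex, rose from 387 ± 32.7 to 458 ± 6.17 CPM (log2 FC 0.24) and from 507 ± 59.0 to 620 ± 9.72 CPM (0.29), with adjusted p-values of 0.00821 and 0.00868 by edgeR. After the GC and length correction the values were 0.11 and 0.19, and both still passed. Daam2, a formin that binds Dishevelled, rose from 115 ± 15.5 to 143 ± 8.13 CPM (0.30, edgeR adjusted p = 0.0183). Its value was 0.20 without WT replicate 2 and 0.19 after the correction, and its call was lost without knockout replicate 1 (edgeR adjusted p = 0.0929) or knockout replicate 2 (0.0576). Smurf2, a ubiquitin ligase that targets Prickle1, rose from 58.4 ± 3.87 to 67.5 ± 0.79 CPM (0.20, edgeR adjusted p = 0.0272), and its call was lost when any knockout library was left out (edgeR adjusted p up to 0.0946). Leaving out knockout replicate 1 reduced the 7 called effectors to 4, and leaving out knockout replicate 2 reduced them to 3. Among all genes these fits called 2658 and 2662, beside 3833 in the reported fit.

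**Figure D5:**
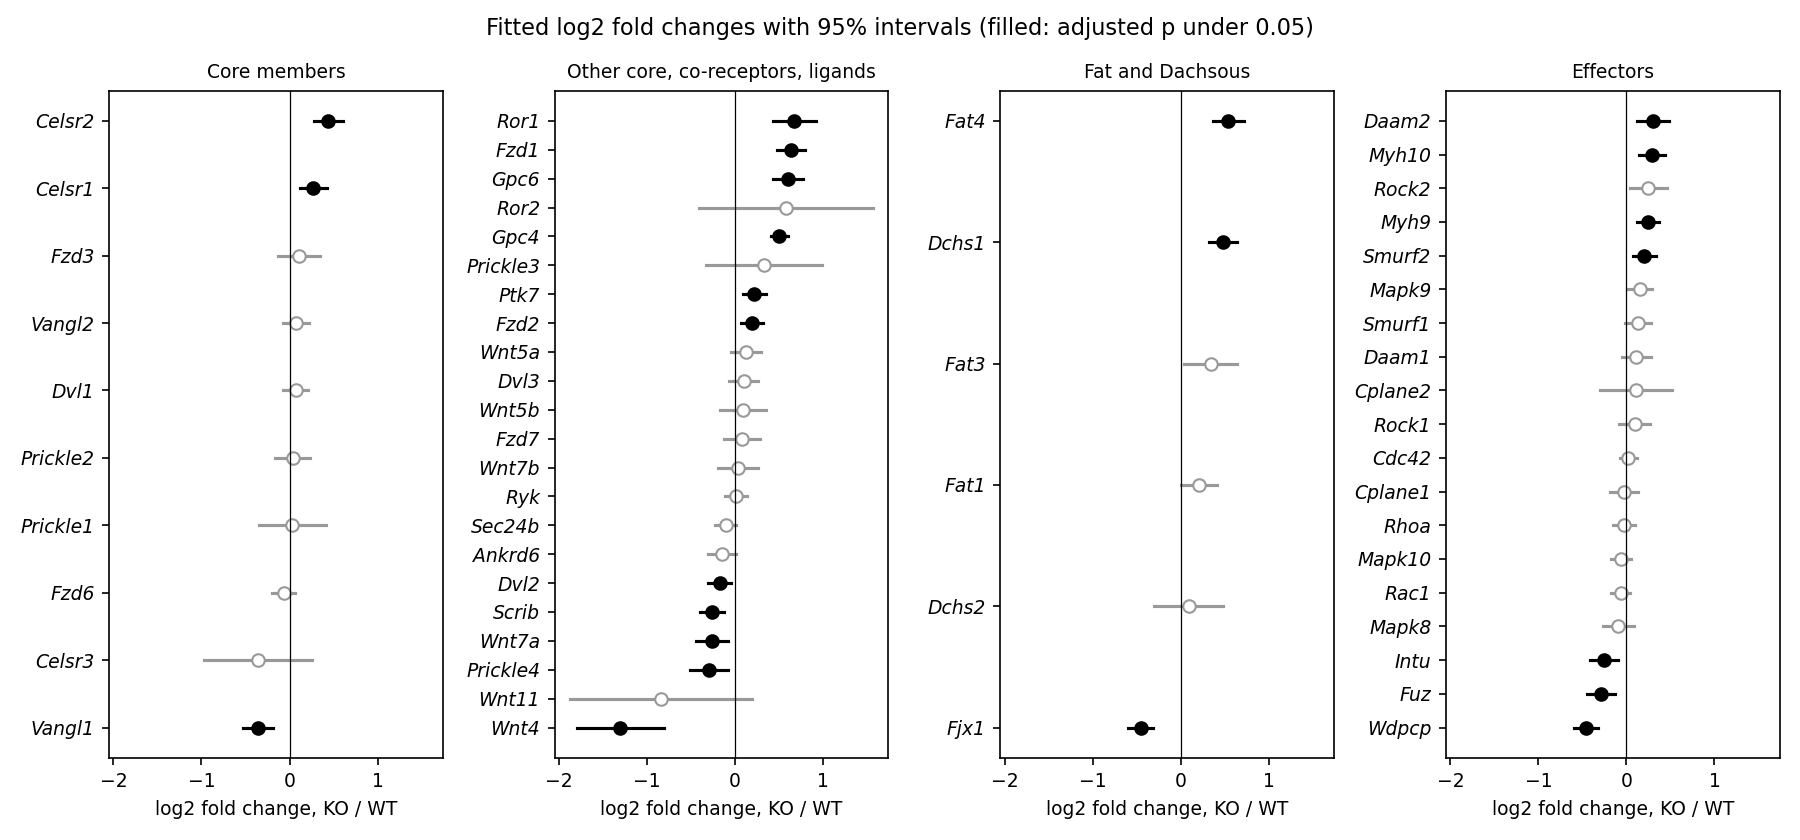
Fitted log2 FC (knockout over WT) with its 95% interval for every tested gene of the core set and of the 3 other lists (filled points have an adjusted p-value under 0.05). Celsr2 (0.44) and Vangl1 (-0.36) are the outermost called core genes, and Ror1, Fzd1, Gpc6, Fat4, Gpc4 and Dchs1 lie between 0.48 and 0.67.

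The genes whose log2 CPM followed each changed core gene most closely over the 6 libraries were listed among 14242 others, with Pearson's r as a description only. For Vangl1 they were the RNA methyltransferase gene Mettl6 (r = 0.999, -0.34 on the log2 scale) and the membrane-bending protein gene Baiap2l2 (r = 0.998, -2.12). Baiap2l2 was barely detected, at 1.55 ± 0.36 CPM in WT and 0.370 ± 0.11 CPM in knockout cells (mean ± SD). For Celsr2 they were Pdzd2, which encodes a PDZ domain protein (r = 0.999, 0.52), and Adgrv1, which encodes another long adhesion receptor (r = 0.997, 0.66). For Celsr1 they were Zadh2 (r = 0.999, 0.14) and Ptar1 (r = 0.997, 0.42). Zadh2 was not called (edgeR adjusted p = 0.141). Adgrv1, Pdzd2 and Ptar1 have long transcripts of 19338, 10756 and 12574 bases, and the 6 points share the low WT replicate 2.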

How the data were processed

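The authors deposited a table of read counts with 1 column per library and 22851 gene symbols. FastQC 0.11.2, cutadapt 1.11, HISAT2 2.1.0 and the build GRCm38 are named per the submitters' processing notes. The counting program, annotation and use of strand are not given in the sources used here, so reads of overlapping or near-identical genes may be shared. There were 0 rows without a gene name and 0 unused columns.

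The deposited counts were analysed in R 4.3.3. filterByExpr of edgeR 4.0.16 left 14243 genes, and TMM factors ran from 0.985 to 1.01. Knockout and WT were compared by its quasi-likelihood test on all 6 libraries without covariates. P-values were adjusted over the tested genes after Benjamini and Hochberg, with 0.05 as threshold. SE is the log2 fold change over the square root of F. CPM uses TMM-scaled library sizes, and log2 CPM a prior count of 2. Paralog ratios add 0.1 CPM and used exact permutation (SciPy 1.17.1). Positions, lengths and shared 31-mers come from GENCODE M21, promoters from RefSeq. Fits were tested on simulated data.

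Alternatives were DESeq2 1.42.0 and its size factors, limma voom (3.58.1), library size only, no filter, a mean count of 50, an adjusted p-value under 0.01, the replicate number as a block, a GC and length correction by splines with 4 degrees of freedom each, a pseudocount of 1 for ratios, and each library left out. Besides the core genes and Edf1, the genes named are all called genes of 3 pathway lists, Dvl2, Dvl3, Fat4, and the 2 genes most correlated with each called core gene. Wnt5a and the other uncalled list genes were named after their values were seen. The members and lists were chosen with earlier results of these data known. Marker lists of radial glia and astrocytes, neurons, the oligodendrocyte lineage and choroid plexus had 5 of 11 (3 higher), 2 of 7 (0 higher), 1 of 6 (1 higher) and 1 of 5 (1 higher) tested genes called.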

Additional observations from a re-analysis of the deposited data

How the results depend on the processing

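The count of 3 core genes called was 3 in every alternative except the GC and length correction, the threshold of 0.01 and the fit without knockout replicate 1, where Celsr1 was lost and 2 remained. Under the threshold of 0.01 the called genes were 6 of the other core and ligand genes, 3 effectors and 2213 of all genes. With each of the 6 libraries left out in turn, the counts were 2 to 3 for the core genes, 6 to 10 for other core and ligand genes, 3 to 5 for Fat and Dachsous genes, 3 to 7 for effectors and 2658 to 4340 for all genes. Uncalled core genes changed sign as follows, and the cause was not tested. After the GC and length correction Vangl2 was at -0.0093, Fzd3 at -0.077, Prickle2 at -0.054 and Dvl1 at -0.019. Prickle1 was at -0.00047 in limma voom. With single libraries left out, Fzd3 ran from -0.046 to 0.21, Prickle1 from -0.097 to 0.17 and Prickle2 from -0.038 to 0.099. The difference in the Prickle2/Prickle1 ratio ran from -0.055 to 0.12. Of 21 called genes in the pathway lists, 12 passed in every alternative.

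The replicate number as a block gave 4065 called genes, 3683 of them shared with the reported 3833, removed the call of Dvl2 (-0.18, edgeR adjusted p = 0.0540) and added those of Fat3 (0.37, 0.0225) and Rock2 (0.26, 0.00775) in the pathway lists, and left the 3 core calls. The deviations of same-numbered libraries correlated at 0.069, 0.060 and 0.037, so no pairing was assumed. With the pairing, the smallest exact sign-flip p for a ratio is 0.25. Of the 10 core genes Celsr3 has the lowest counts, with 16 to 49 counts a library.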
